A study of Homo sapiens with 6 samples.

Results

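The genes described here are 46 ligands, receptors, SMADs, targets and inhibitors of BMP, activin and TGF-beta signalling. They were taken by name from an array table of 34692 gene rows, and all 46 had a row. They comprised 13 ligands, 11 receptors and co-receptors, 6 signal-carrying SMADs, the 4 ID target genes, 7 secreted antagonists and 5 inhibitors in the cell or its membrane. Expression was measured on Illumina bead arrays in 3 samples of control neural cells and 3 samples of isthmic organizer (IsO)-like cells. Both were made from the established human embryonic stem cell line H9. The protocol gives every group 5 µM dorsomorphin, an inhibitor of BMP type I receptors, and 10 µM SB431542, an inhibitor of the activin and TGF-beta type I receptors, up to plating on day 4, followed by 5 days on Matrigel. IsO-like cells also received FGF8 (100 ng/ml) and CHIR99021, which turns on Wnt signalling by inhibiting GSK3. Its concentration is given only as between 0 and 1.2 µM. Whether the samples of a group were separate cultures is not stated, so the p-values reflect sample-to-sample spread that may be technical. No group lacked the inhibitors, so the arrays compare both kinds of cells after the same early block, and their effect itself was not measured.

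Ligands of this family bind pairs of type I and type II receptor kinases. BMP receptors phosphorylate SMAD1, SMAD5 and SMAD9, activin, NODAL and TGF-beta receptors phosphorylate SMAD2 and SMAD3, and either set enters the nucleus with SMAD4. Neural induction needs low BMP and activin signalling, which is why such inhibitors are used, and in the later neural tube BMPs from the roof plate pattern dorsal cells. ID genes, which encode helix-loop-helix proteins without a DNA-binding domain, are classical targets of BMP signalling.

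The promoters of the 4 ID genes are shown because they were the group of targets on which the comparison turned, with 3 members higher and 1 lower on every IsO array. Each RefSeq window (GRCh38.p14) runs from 250 bases before to 50 bases after the gene's start and is printed on the gene's own strand. They lie at chr20:31605039-31605338 (plus strand) for ID1, chr2:8681806-8682105 (plus) for ID2, chr1:23559452-23559751 (minus) for ID3 and chr6:19837120-19837419 (plus) for ID4. Capitals mark matches to 4 motifs. The CCAAT box (CCAAT), the SMAD box (written as CAGAC) and a GC-rich SMAD element (with the letters GGCGCC) were searched on both strands. The TATA box (searched as TATAAA) was read on the printed strand.
ID1: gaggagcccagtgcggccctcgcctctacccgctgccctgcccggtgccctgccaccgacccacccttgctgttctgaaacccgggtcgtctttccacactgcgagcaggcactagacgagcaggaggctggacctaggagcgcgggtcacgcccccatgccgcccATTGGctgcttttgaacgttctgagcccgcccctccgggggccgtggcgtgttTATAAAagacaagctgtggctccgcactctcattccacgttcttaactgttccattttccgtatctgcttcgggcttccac
ID2: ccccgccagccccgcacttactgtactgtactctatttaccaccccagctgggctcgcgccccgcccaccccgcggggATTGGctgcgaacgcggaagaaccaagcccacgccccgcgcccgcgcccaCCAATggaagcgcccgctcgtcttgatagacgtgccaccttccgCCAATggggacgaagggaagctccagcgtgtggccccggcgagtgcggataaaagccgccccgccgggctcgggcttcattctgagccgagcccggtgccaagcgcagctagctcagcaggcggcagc
ID3: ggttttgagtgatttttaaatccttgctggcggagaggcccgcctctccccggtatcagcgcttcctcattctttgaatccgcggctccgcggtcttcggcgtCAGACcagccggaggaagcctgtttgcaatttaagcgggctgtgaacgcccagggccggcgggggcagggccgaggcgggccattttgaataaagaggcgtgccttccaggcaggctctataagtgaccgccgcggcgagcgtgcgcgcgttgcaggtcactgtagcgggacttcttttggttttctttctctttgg
ID4: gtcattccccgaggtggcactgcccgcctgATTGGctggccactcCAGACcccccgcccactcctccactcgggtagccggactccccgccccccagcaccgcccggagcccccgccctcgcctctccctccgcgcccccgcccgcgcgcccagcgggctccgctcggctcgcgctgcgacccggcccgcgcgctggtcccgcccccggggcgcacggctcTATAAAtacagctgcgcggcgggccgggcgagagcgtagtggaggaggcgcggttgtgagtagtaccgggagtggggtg
ID1 held 1 TATA box and 1 CCAAT box, ID2 held 3 CCAAT boxes, ID3 held 1 SMAD box, and ID4 held 1 TATA box, 1 CCAAT box and 1 SMAD box. None of the 4 windows held the GC-rich element, and no matches overlapped. Of 35116 RefSeq promoter windows of this length, 7.33% held the TATA box, 34.6% the CCAAT box, 45.3% the SMAD box and 19.2% the GC-rich element. ID1 and ID4, which moved in opposite directions below, thus both held the TATA and CCAAT letters. A match is a description of these letters and not evidence of a bound site.

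Median deposited intensities ran from 144 to 157 over the arrays, and 13999 to 15232 rows an array were above background (detection p-value below 0.05). With 3 arrays a group, precision is limited by their number. Of 10 isthmic organizer markers 7 were tested and 5 rose in IsO-like cells (EN1, EN2, FGF17, WNT1 and PAX8). With the replicate number as a block all 7 rose, FGF8 and GBX2 among them (limma, adjusted p = 0.0426 and 0.0284). EN1, EN2, PAX8 and GBX2 were tested because of their IsO arrays alone, since their control signal stayed at background. Their p-values therefore rest on control values that are background. By the bound described for PAX3 below, they were at least 23.3-, 9.77-, 8.09- and 1.97-fold higher, in that order. PAX5 stayed at background on all 6 arrays. Of 6 markers of pluripotent cells NANOG stayed at background on all 6 arrays, while 3 were above it on all 6. Of these markers 4 were tested and none was called. The summed normalised intensity of the 6 was 2506 to 3068 on control arrays and 2315 to 2698 on IsO arrays. Array IsO 1 stood apart in markers of neural crest. The summed normalised intensity of 10 such genes was 13459 on IsO 1 against 4087 and 4336 on IsO 2 and IsO 3, and 3427 to 5124 on the control arrays. Of 8 tested crest markers 2 rose and 5 rose with the block, with a median difference of 1.72 on the log2 scale. TWIST1 rose by 1.97 ± 0.32 (SE, limma adjusted p = 0.0453) and was higher on every IsO array. PAX3, which was not above background on any control array, was at least 2.4-fold higher (adjusted p = 0.0181), against the higher of its own signal and the lowest detected signal on each control array. Summed levels of 9 neuron markers were 13859 to 17464 on control arrays and 22984 to 27006 on IsO arrays, and 1 of 7 tested rose (3 with the block). Those of 8 mesoderm and endoderm markers, 4 of them at background on every array, were 285 to 327 on control and 553 to 673 on IsO arrays. Of 2 tested none was called, and 1 rose with the block. Sums of 7 surface ectoderm markers were 5585 to 7764 on control and 3626 to 5612 on IsO arrays. None of 5 tested was called with or without the block. The part of such cells in the differences below was not tested. Deviations from the group mean correlated between same-numbered arrays (0.87, 0.40 and 0.65 for numbers 1 to 3, across the tested rows). Correlations between different numbers ran from -0.83 to 0.70, so only number 1 stood out as a pair. A fit with the replicate number as a block assumes that all numbers pair the arrays. It is given beside the pathway genes whose call it changes and beside the marker counts it moves.

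Of the 46 genes, 24 passed the filter (above background on 3 or more of the 6 arrays by detection p-value) and were tested, 2 rose, 1 fell and 21 did not pass. A gene is called here at an adjusted p below 0.05 from limma's moderated test over all 14548 tested rows, of which 0.811% rose and 0.488% fell. With the replicate block 6 of the 24 rose and 1 fell, against 3.27% and 2.50% of all tested rows. The 3 IsO values lay above all 3 control values for 9 of the 24 and below them for 3, against 8.20% and 7.24% of all tested rows. The median difference, IsO minus control, was 0.42 on the log2 scale for the 24 and -0.01 for all tested rows. The other 22 genes did not pass the filter and have no part in these counts.

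**Figure D1:**
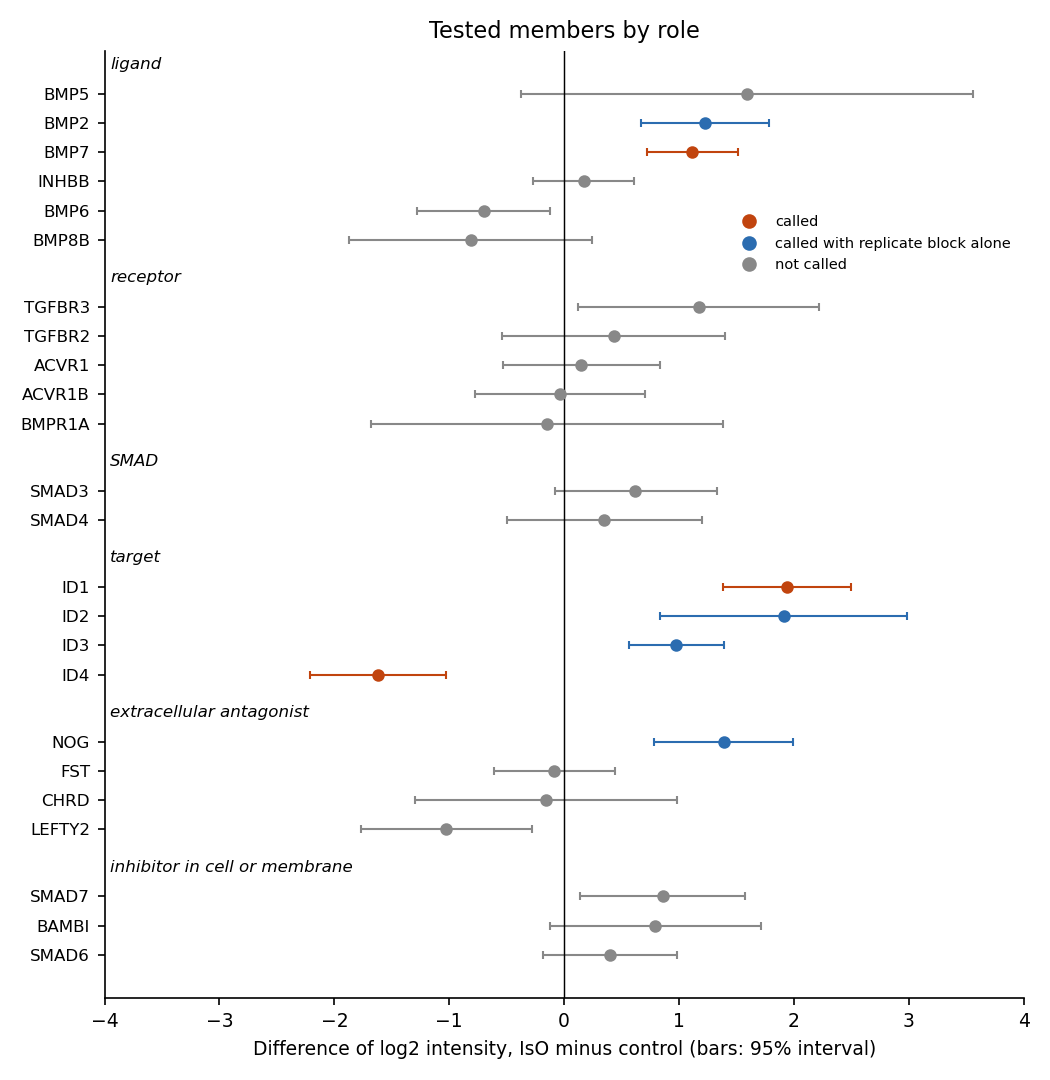
Difference of log2 intensity, IsO minus control, for the 24 tested genes, ordered by role. Points are limma estimates, bars their 95% intervals, red marks the 3 genes called, blue those called with the replicate block alone. ID1 lies at 1.94 and ID4 at -1.62, while receptors and SMADs have intervals that reach or nearly reach 0.

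Among ligands, BMP7 and, with the replicate block, BMP2 were higher in IsO-like cells, each by about the same log2 step in every same-numbered pair. BMP7, a BMP made by dorsal neural tissue and roof plate, was the more uniform. Its normalised log2 intensity was 11.28, 11.15 and 11.35 on control arrays 1, 2 and 3 and 12.32, 12.40 and 12.40 on the IsO arrays. The groups did not overlap and lay 1.11 ± 0.16 apart (SE, 3 arrays per group, adjusted p = 0.0346), a 2.16-fold rise. The call was lost when any 1 of the 6 arrays was left out (differences of 1.05 to 1.15, adjusted p from 0.0573 to 0.219). BMP2, a close relative of BMP4, was at 9.45, 9.17 and 8.82 on control arrays and at 10.63, 10.27 and 10.23 on IsO arrays. Every IsO array was above every control array, and the pairs differed by 1.18, 1.10 and 1.40. The difference of 1.23 ± 0.23 had an adjusted p of 0.0775, and 0.0158 with the replicate block.

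BMP4, a ligand that induces dorsal neural and epidermal fates, was above background by its signal on all 6 arrays but combined several probes, and its combined detection p-values kept it out of the filter. It was at 6.86, 6.94 and 6.65 on control arrays and 8.79, 8.22 and 7.94 on IsO arrays. The groups did not overlap, with the lowest IsO array above the highest control array. In the setting that also tests rows of several probes by their signal, BMP4 differed by 1.5 ± 0.26 (limma, adjusted p = 0.0573). With the block added to it, a setting chosen after seeing the data, the adjusted p was 0.0192, where 3.40% of 15544 tested rows rose.

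The remaining ligands did not pass. BMP5, a BMP of the roof plate, was at 6.58, 5.22 and 5.50 on control arrays and at 9.24, 6.58 and 6.26 on IsO arrays. IsO 1 was far above the others, and the groups overlapped. The difference was 1.59 ± 0.82 (adjusted p = 0.666, 0.0808 with the block) and 0.61 without IsO 1. BMP5 was above background on 1 control array and on all 3 IsO arrays. BMP6, another roof plate BMP, and BMP8B, a relative of BMP7, pointed the other way without passing, at -0.70 ± 0.24 and -0.81 ± 0.44 (adjusted p = 0.363 and 0.693), with no overlap for BMP6. INHBB, a subunit of activin B, differed by 0.17 ± 0.18 (adjusted p = 0.926). BMP3, TGFB1, TGFB2, TGFB3, the activin A subunit INHBA and NODAL were not above background on any array.

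**Figure D2:**
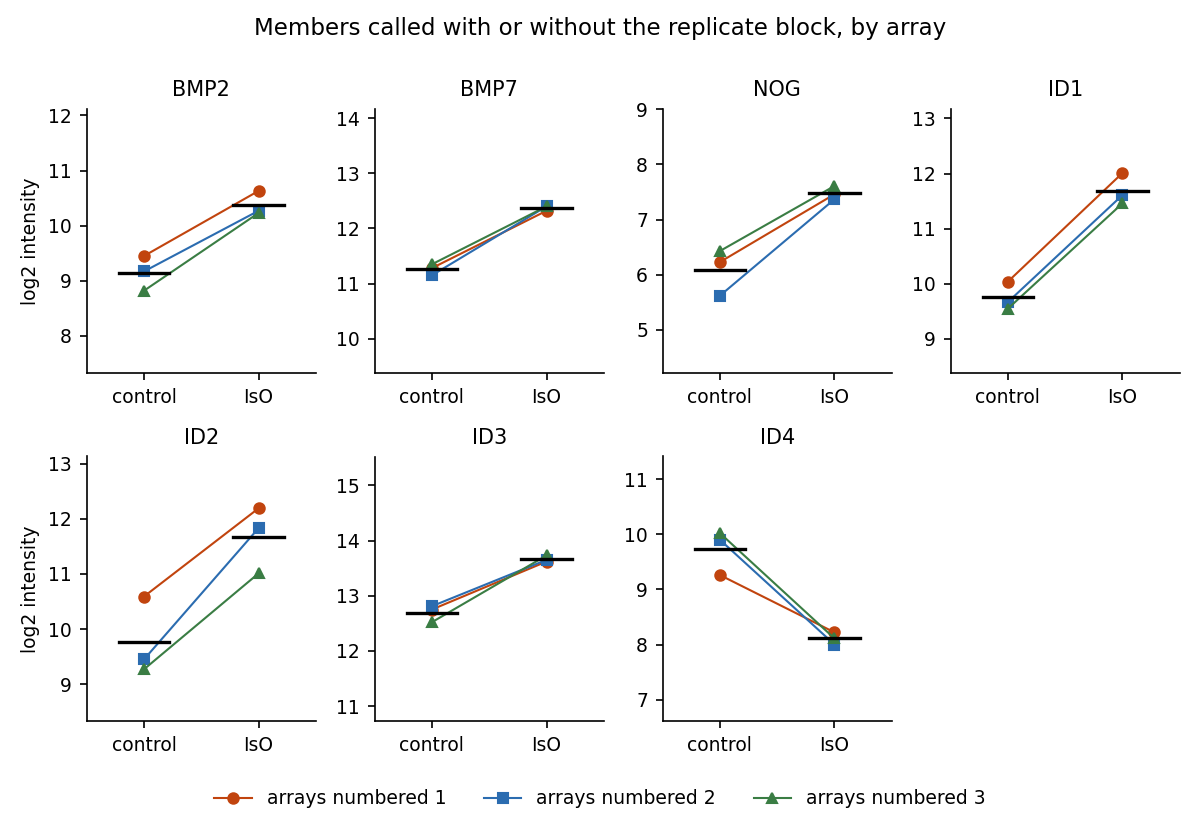
Normalised log2 intensity of the 7 genes called with or without the replicate block, on each array. Lines join same-numbered arrays and black bars are group means, over a range of the same height in every panel. All 3 lines rise for BMP2, BMP7, NOG, ID1, ID2 and ID3 and fall for ID4.

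The ID genes split: ID1 rose and ID4 fell, and ID2 and ID3 were higher on every IsO array and passed when the block was added to this fit. Under the 20 alternative settings ID3 was called in 9, most of them without the block. ID1 was at 10.04, 9.67 and 9.55 on control arrays and at 12.01, 11.61 and 11.46 on IsO arrays. The groups lay far apart, and the same-numbered pairs differed by 1.97, 1.94 and 1.91. The difference of 1.94 ± 0.23 (SE, 3 arrays per group, adjusted p = 0.0181) was a 3.84-fold rise. It was called without control 1 and without IsO 1, but not without any of the other 4 arrays (adjusted p from 0.0594 to 0.122), at 1.82 to 2.09 throughout. With the background taken from all rows ID1 differed by 1.91 and was not called (limma, adjusted p = 0.0530).

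ID2 was at 10.59, 9.45 and 9.27 on control arrays and at 12.19, 11.83 and 11.01 on IsO arrays. The arrays numbered 1 were the highest in both groups, so the spread within a group was wide although the groups did not overlap. The difference of 1.91 ± 0.45 had an adjusted p of 0.145, and 0.0141 with the block. ID3 was at 12.75, 12.81 and 12.52 on control arrays and at 13.62, 13.65 and 13.73 on IsO arrays. Its IsO arrays lay within a narrow range above all control arrays. The difference of 0.97 ± 0.17 had an adjusted p of 0.0627, and 0.0284 with the block.

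ID4, which neural progenitors express, was at 9.26, 9.90 and 10.02 on control arrays and at 8.22, 8.0 and 8.11 on IsO arrays. All IsO arrays lay below all control arrays, with the smallest step in the pair numbered 1. It fell by 1.62 ± 0.25 on the log2 scale (adjusted p = 0.0385), a 3.07-fold drop. The call was kept without control 1 and lost without any of the other 5 arrays (adjusted p from 0.0715 to 0.222), with differences between -1.87 and -1.46. With the background taken from all rows it was -0.43 and not called. In bulk RNA, fewer cells of a type and less RNA per cell cannot be told apart. The summed level of 8 neural progenitor markers was 100860 to 117305 on control arrays and 50273 to 65383 on IsO arrays, with SOX2 the 1 called lower of 7 tested (4 with the block). The part of such cells in the ID4 result was not tested.

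None of the 5 tested receptors passed in limma's test, and 1 had an unadjusted p below 0.05. That was TGFBR3 (betaglycan), a co-receptor that presents TGF-beta and inhibin. It was at 7.27, 6.85 and 6.09 on control arrays and at 8.68, 7.38 and 7.66 on IsO arrays. IsO 1 was the highest, and the groups did not overlap. TGFBR3 differed by 1.17 ± 0.44 (adjusted p = 0.423, 0.0605 with the block), or 0.76 without IsO 1. ACVR1 (ALK2), a BMP type I receptor that dorsomorphin inhibits, differed by 0.15, with a 95% interval from -0.53 to 0.83. ACVR1B (ALK4), the activin and NODAL type I receptor that SB431542 inhibits, differed by -0.04, from -0.78 to 0.70. BMPR1A (ALK3) differed by -0.15, from -1.68 to 1.38, and TGFBR2, the TGF-beta type II receptor, by 0.43, from -0.54 to 1.40. These intervals leave room for changes of about the size seen for BMP7 in either direction for BMPR1A, and higher for TGFBR2.

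The other receptors did not pass the filter. ACVR2B, an activin type II receptor whose row combined several probes, was above background by its signal on all 6 arrays and differed by 0.00 ± 0.20 when tested by that signal. BMPR2 was above background on 2 IsO arrays and no control array, and BMPR1B and TGFBR1 on 1 IsO array each. ACVR2A was above it on control 1 and IsO 1, and the NODAL co-receptor TDGF1 on control 1 alone. Rows of BMPR2, ACVR2A and TDGF1 also combined several probes. TDGF1 is named CRIPTO in current RefSeq; the other 45 symbols are current.

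The SMADs that carry the signal did not pass either. SMAD3, which carries activin and TGF-beta signals, was at 10.12, 10.88 and 10.24 on control arrays and at 10.76, 10.89 and 11.45 on IsO arrays. The groups overlapped, and the difference was 0.62 ± 0.29 (limma, adjusted p = 0.597). SMAD4, the common partner, differed by 0.35 ± 0.36 (adjusted p = 0.916). Neither had an unadjusted p below 0.05. SMAD5, a BMP SMAD whose row combined several probes, was not in the filter and differed by -0.44 ± 0.46 when tested by its signal (adjusted p = 0.920). SMAD1 stayed at background on all arrays, and SMAD2 was above it on 1 array of each group, control 1 (by its signal alone) and IsO 2. Rows of SMAD1 and SMAD2 combined several probes, so this describes the combined signal and not each probe. SMAD9 was above background on IsO 1 alone, at 6.09 against 4.93 to 5.05 on the other 5 arrays.

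NOG (noggin), a secreted protein that binds and blocks BMPs, was higher on every IsO array, and the other tested antagonists were not. It was at 6.23, 5.62 and 6.43 on control arrays and at 7.46, 7.37 and 7.61 on IsO arrays. The groups were about a log2 unit apart at their nearest values, with 2 control arrays above background. The difference was 1.39 ± 0.25 (SE, 3 arrays per group, limma adjusted p = 0.0669, 0.0195 with the block). It was 0.07 with the background taken from all rows. CHRD (chordin), which also binds BMPs, and FST (follistatin), which binds activins, differed by -0.16 and -0.09, with 95% intervals from -1.30 to 0.98 and from -0.61 to 0.44.

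LEFTY2, a NODAL antagonist that is itself a target of activin and NODAL signalling, was at 6.19, 6.92 and 7.14 on control arrays and at 5.64, 5.45 and 6.08 on IsO arrays. The groups did not overlap, and 1 IsO array was above background. The difference of -1.03 ± 0.31 did not pass (limma, adjusted p = 0.274, 0.0589 with the block). LEFTY1 was above background on 1 IsO array. GREM1 (gremlin), a BMP antagonist made by mesenchyme, had a row that combined several probes. It was above background only on control 1 (by its signal alone) and IsO 1, at 6.02 and 7.59. On the other 4 arrays it was at 5.10 to 5.51. Summed levels of 8 mesenchyme markers were 3429 to 5071 on control arrays, lowest on control 1, and 5921 to 7981 on IsO arrays, highest on IsO 1. None of 5 tested mesenchyme markers passed in limma (2 had an unadjusted p below 0.05, and 1 rose with the block), and their part was not tested. BMPER, whose row also combined several probes, was not above background on any array.

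**Figure D3:**
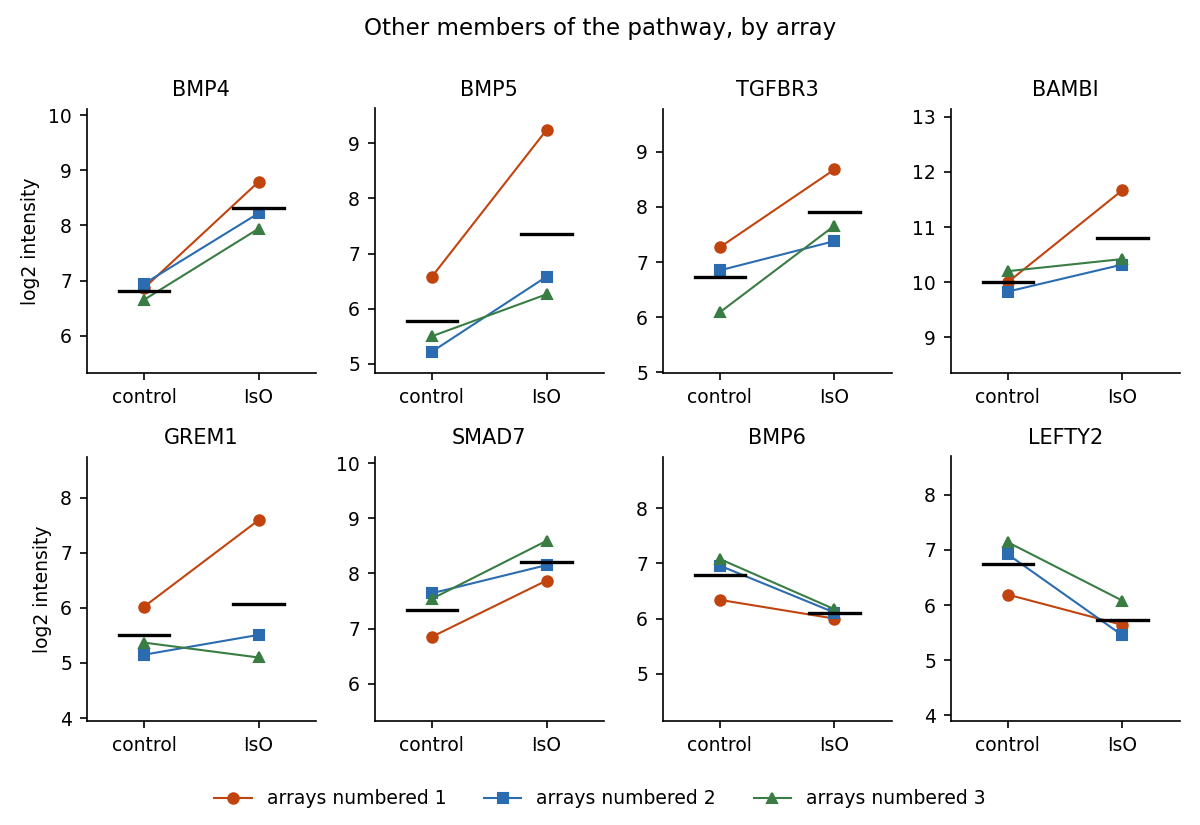
Normalised log2 intensity on each array of 8 other genes. BMP4 and GREM1 were not among the 14548 tested rows, and no fit over those rows called the rest. The blocked fit with rows of several probes added, a setting chosen after seeing the data, called BMP4 and SMAD7. Lines join same-numbered arrays, black bars are group means, and each panel spans the same height. BMP5, BAMBI and GREM1 have IsO 1 far above IsO 2 and IsO 3, while BMP4 and SMAD7 are higher on every IsO array than on any control array.

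Inhibitors inside the cell or in its membrane did not pass. SMAD7, an inhibitory SMAD induced by the pathway, was at 6.85, 7.64 and 7.54 on control arrays and at 7.87, 8.15 and 8.59 on IsO arrays. All IsO arrays were above all control arrays, and each same-numbered pair rose, by 1.01, 0.51 and 1.05. The difference was 0.86 ± 0.30 (limma, adjusted p = 0.366, 0.0510 with the block, and 0.0493 with the block and the rows of several probes added). SMAD6, the inhibitory SMAD of BMP signalling, differed by 0.40 ± 0.24 (adjusted p = 0.749).

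BAMBI, a membrane pseudoreceptor induced by BMPs, was at 10.00, 9.83 and 10.20 on control arrays and at 11.67, 10.32 and 10.42 on IsO arrays. IsO 1 stood above IsO 2 and IsO 3, which were just above the controls. The difference of 0.79 ± 0.38 (limma, adjusted p = 0.619) was 0.37 without IsO 1. The ubiquitin ligases SMURF1 and SMURF2, which mark SMADs and receptors for breakdown, did not pass the filter. SMURF1 combined several probes, lay above background by its signal on all 6 arrays and differed by -0.02 ± 0.38 when tested by it. SMURF2 was above background on IsO 3 alone.

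**Figure D4:**
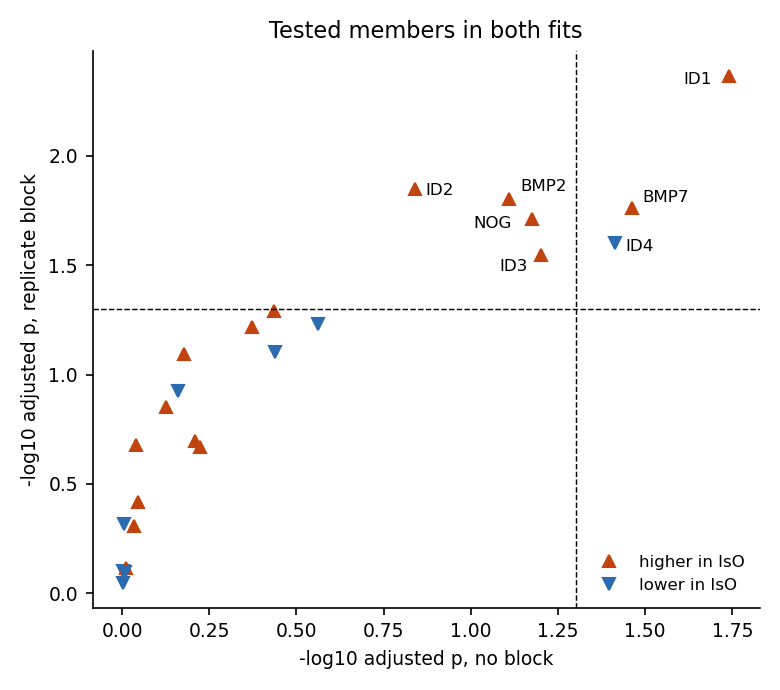
Adjusted p of the 24 tested genes without (x axis) and with (y axis) the replicate block, as -log10, with dashed lines at 0.05. ID1, BMP7 and ID4 pass both, and ID2, BMP2, NOG and ID3 pass on the y axis alone; triangles point up for genes higher in IsO-like cells.

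Outside these 46 genes, 79 further genes of the pathway were looked up and 42 were tested, of which 4 rose and 1 fell (7 and 3 with the block). Among all 14548 tested rows 0.811% rose and 0.488% fell (3.27% and 2.50% with the block). The genes that rose were 3 of 9 tested targets and 1 of 5 tested ligands. MSX2 and MSX1, homeobox genes that BMPs induce in the dorsal midline, rose by 3.54 ± 0.36 and 2.99 ± 0.47 log2 units (SE, limma adjusted p = 0.0101 and 0.0430). ATOH8, a helix-loop-helix gene induced by BMPs, was at 7.86, 7.75 and 7.80 on control arrays and at 9.15, 9.45 and 9.38 on IsO arrays. The groups were narrow and far apart, with a difference of 1.52 ± 0.17 (adjusted p = 0.0153). GDF10, a TGF-beta family ligand related to BMP3, rose by 2.25 ± 0.27 (adjusted p = 0.0182). CTGF (CCN2 in current RefSeq), a gene induced by TGF-beta, was at 12.58, 12.66 and 12.80 on control arrays and at 11.06, 11.31 and 11.32 on IsO arrays. It fell by 1.46 ± 0.18 (adjusted p = 0.0191), with no overlap. TGFBI, another gene induced by TGF-beta, differed by 0.14 (adjusted p = 0.957).

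None of 3 further receptors, 11 secreted modulators and 14 intracellular regulators passed in limma without the block, and 2 of each group had an unadjusted p below 0.05. With the block AMHR2, the receptor for anti-Müllerian hormone, differed by 1.15 (adjusted p = 0.0174), LTBP4, which binds latent TGF-beta, by 1.08 (adjusted p = 0.0286) and ZNF423, a SMAD partner, by 0.74 (adjusted p = 0.0436). The BMP co-receptor RGMA differed by -1.21 (adjusted p = 0.0360) and NBL1, a secreted BMP antagonist, by -1.95 (adjusted p = 0.0207). Of 8 roof plate markers, which include MSX1 and MSX2, 5 were tested and 3 rose, the other being WNT3A, and 4 rose with the block, which adds LMX1A (limma, adjusted p = 0.0454). Their summed level was 2305 to 7118 on control arrays and 25088 to 32869 on IsO arrays. MSX1 made up most of this linear sum on every array, so the sum mainly follows that gene. Its log2 intensity was 10.22 to 12.13 on control arrays and 13.93 to 14.19 on IsO arrays. GDF7, a roof plate BMP, stayed at background on all 6 arrays. The part of such cells in the differences of BMP ligands and targets was not tested.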

How the data were processed

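The 6 arrays were grouped by their titles. The deposited table held linear intensities without background subtraction and a detection p-value per row, per the file headers; the submitters' processing notes name GenomeStudio 2011.1. The authors had combined probes to 1 row per gene: detection p-values of a single probe are multiples of 1 in 770 (within 0.001 of a step), and 7380 rows broke that rule and so combined several probes. The 5309 rows with a p-value of 0 on every array cannot be told apart in this way and were counted as rows of 1 probe. Rows whose p-values all lay within this tolerance of 0, such as NBL1 (detection p-value of 8.43e-07 on each IsO array), were counted likewise. The authors' deposited log2 table (34685 rows) lay within 0.00754 of log2 intensities after quantile normalisation alone and served as an alternative. No genome build for the probes is given in the sources used here.

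Background was corrected by normexp (limma 3.58.1, R 4.3.3), its level inferred from the detection p-values of 1-probe rows (means of 122 to 132), with an offset of 16. Values were then quantile-normalised and put on the log2 scale. Quantile normalisation hides a shift of most genes, and the offset compresses dim ones. Rows detected (p-value below 0.05) on 3 or more arrays were tested with lmFit and eBayes, IsO against control, and p-values were adjusted by Benjamini-Hochberg over all 14548; the procedure was tested on simulated data. A several-probe row also counted as above background where it was as bright as the dimmest detected 1-probe row; 996 more rows pass the filter this way and were tested as an alternative.

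The labels give both groups the same replicate numbers. Deviations of same-numbered arrays correlated at 0.87, 0.40 and 0.65, against -0.83 to 0.70 between different numbers, so only number 1 stood out as a pair. The blocked fit assumes that all numbers pair the arrays and is given as an alternative. All 46 genes are accounted for: those called with or without the block get every array's value, and other tested ones are given by size within their role. Further names and array values were added for genes chosen after their values were seen. The genes and lists were chosen with earlier results of these data known.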

Additional observations from a re-analysis of the deposited data

How the results depend on the processing

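Among the 24 tested genes, all differences of BMP2, BMP7, NOG and ID1 to ID4 kept their direction under every one of the 20 alternatives that tested them. Over all tested rows the block raised the calls from 118 higher and 71 lower to 475 and 363. With the replicate block 6 genes of the 46 were called higher in place of 2, and 10 of the 79 further pathway genes in place of 5. With the block and the rows of several probes added, a setting chosen after seeing the data, these counts were 8 and 10. The block changed no call among the 24 other than BMP2, ID2, ID3 and NOG. The call of ID4, the 1 gene lower, fell to 0 genes with the background from all rows, with median scaling, without the filter and with detection on all 6 arrays. Of the further pathway genes 2 were called with the background from all rows, 3 with detection on all 6 arrays and 8 without both arrays numbered 1; the cause was not tested. With each array left out in turn, 0 to 1 genes were called higher, 0 to 1 lower and 0 to 5 of the further genes, in fits of fewer samples. ID3 was called under 9 of the 20 alternatives, most of them without the block, ID1 under 15, BMP7 under 14 and ID4 under 11. Differences near 0 changed sign. With each array left out in turn, BMPR1A ranged from -0.80 to 0.32, ACVR1 from -0.08 to 0.36, ACVR1B from -0.26 to 0.21, TGFBR2 from -0.02 to 0.74, CHRD from -0.60 to 0.20 and FST from -0.23 to 0.05. BMPR1A was 0.01 with the background from all rows, ACVR1B 0.02 with median scaling, and ACVR1 -0.07 and FST 0.02 without both arrays numbered 1. None of these was called. The background inferred from all rows had means of 258 to 296, against 122 to 132 from rows of 1 probe, and with it NOG differed by 0.07 and ID4 by -0.43.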
